A study of Mus musculus with 12 samples.

Results

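The difference in ribosome pull-down enrichment between 2 genotype labels was measured in cultured mouse dorsal root ganglion (DRG) neurons. Enrichment is the log2 ratio of a gene's level in the HA pull-down to its level in the input of the same label. The difference is the enrichment in libraries labelled Cre+ minus the enrichment in libraries labelled Cre-. Genes listed in both deposited tables with a mean FPKM above 1 were taken, which gave 8954 of the 14177 genes listed in either table. The choice did not use the tested difference, but it did depend on the counts of the libraries labelled Cre+. The table of the libraries labelled Cre+ lists only genes with at least 5 counts in every one of its libraries. So 5065 genes are listed for Cre- alone, and 2637 of these have a mean FPKM above 1 there, whereas 0 are listed for Cre+ alone. Genes nearly absent from a Cre+ pull-down were therefore not tested, and the counts of lower genes below leave them out.

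All mice were male, carried Rpl22HA/HA (the RiboTag allele, which adds an HA epitope to the ribosomal protein Rpl22 after Cre recombination) and were 3 to 6 months old by the labels. The groups labelled Cre+ also carried Runx3-Cre, and the groups labelled Cre- were littermates without it. Each of the 12 libraries pooled neurons from 5 mice after 24 h in culture, with 3 libraries each of Cre+ pull-down, Cre+ input, Cre- pull-down and Cre- input. The input was RNA from a share of the lysate taken before the pull-down. A pull-down and the input of its lysate are thus paired by design. The fit did not use that pairing and treated all 12 libraries as independent, so the p-values measure the spread between libraries without it. Between 8886308 and 18633365 counts per library fell on listed genes.

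In the RiboTag method, an antibody to HA collects tagged ribosomes with the mRNAs bound to them, and RNA gained over the input marks transcripts on ribosomes of the tagged cells. Runx3 is a transcription factor of proprioceptive neurons, the large DRG neurons that sense muscle stretch and limb position. In mice without Cre the tag is not switched on, so the pull-down without Cre serves as the control for RNA carried along without a tagged ribosome. In these bulk samples fewer cells of a type and less RNA per cell cannot be told apart.

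The labels were first set against the driver. Runx3 (chr4:135120645-135177990, GRCm38) had 23.4, 2.2 and 11.7 CPM (counts per 1000000 counts, scaled by TMM) in the pull-downs labelled Cre+ and 4.4, 2.5 and 5.7 CPM in their inputs. It had 20.2, 34.8 and 49.9 CPM in the pull-downs labelled Cre- and 4.6, 1.9 and 2.8 CPM in their inputs. The ranges of the pull-downs overlapped, and the driver gene was called enriched only under Cre-, by 3.49 on the log2 scale (FDR = 0.0206, edgeR quasi-likelihood test). Its enrichment under Cre+ was 1.56 (FDR = 0.131), and the difference was -1.93 ± 1.0 (SE, FDR = 0.302). Without pull-down 1 labelled Cre+, on which the overlap rests, Runx3 was called lower, with a difference of -2.77 (FDR = 0.0736). Pvalb, the calcium buffer parvalbumin that marks proprioceptors, is listed for Cre- only, with 83, 89 and 101 counts in the inputs and 1052, 871 and 878 in the pull-downs. The column names of the table used for Cre+ also fit the titles of the Cre- samples apart from punctuation, and were given to Cre+ because the labels of those samples name that table. If the assignment were the reverse, every direction of the difference would turn. Of all tested genes 14.0% were enriched under Cre+ and 3.02% under Cre-. Across genes, log2 levels correlated at 0.685 to 0.83 between the Cre+ pull-downs and at 0.93 to 0.97 between the Cre- pull-downs. The Cre+ pull-downs were thus the less alike. The paper reports a significant overlap of genes enriched in Runx3-Cre+ cultures with those of Runx3-Cre ganglia. It reports poorer consistency for cultures without Cre. The assignment itself was not tested. Each direction below follows the labels as deposited. Rpl22 itself, the tagged gene, had a difference of 0.53 ± 0.52 (SE, FDR = 0.595).

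Enrichment differed between the labels in both directions. Of the 8954 genes, 209 had higher enrichment in the libraries labelled Cre+ (2.33%) and 182 had lower enrichment (2.03%), at FDR below 0.1 and a 2-fold difference. The first set was led by Palm2, March4, Syt6 and Ngfr, and held chromatin regulators, zinc-finger and homeobox transcription factors, ion channels and G proteins. The second set was led by Car2, Ckb, Clu and Pkm, and held enzymes of glycolysis, the citrate cycle and oxidative phosphorylation. Over all genes the median difference was 0.13, and 54.8% of genes had a positive value. The median was 1.64 in the first set, with a range from 1.01 to 6.26, and -1.91 in the second, with a range from -4.34 to -1.05.

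The split between directions depended on the scaling. Higher calls were 53.5% of all calls with TMM, 29.3% with upper-quartile scaling (85 higher and 205 lower, median of all genes -0.05) and 20.7% with scaling by library size (72 higher and 275 lower, median -0.11). It also depended on single libraries. Leaving out a pull-down labelled Cre+ raised the calls, to 635, 713 and 504 higher and 600, 694 and 452 lower without pull-down 1, 2 and 3. Leaving out an input labelled Cre+ gave 36, 53 and 38 higher and 68, 85 and 69 lower genes. Without inputs 1, 2 and 3 labelled Cre- the counts were 41, 13 and 22 higher and 61, 30 and 40 lower. Without pull-downs 1, 2 and 3 labelled Cre- they were 221, 43 and 16 higher and 155, 58 and 35 lower, so pull-down 1 moved them least. In all 12 of these fits 13 of the 209 and 30 of the 182 genes were called, and those 43 genes were also called with DESeq2, with both other scalings, with a length and GC offset, and with the replicate block. With that block in the libraries labelled Cre- only 19 genes were called higher and 40 lower. The main fit did not take the replicate numbers as pairing, and whether they pair the Cre- libraries was not settled.

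The called genes differed between the pull-downs of both labels far more often than between the inputs. Between the inputs of both labels 0 genes were called by edgeR (18 at an unadjusted p under 0.05), and between the pull-downs 184 of the 209 genes were called higher, where 10.8% of all genes were, and 176 of the 182 lower, where 7.14% of all genes were. Among the 209 genes, 153 were enriched under Cre+, where 14.0% of all genes were, and 27 were depleted under Cre-, where 1.95% of all genes were. Among the 182 genes, 108 were depleted under Cre+ (10.6% of all genes) and 50 were enriched under Cre- (3.02% of all genes). The single-label and pull-down values enter the difference and are given as a description of it. In each set 31 genes were called under neither label alone.

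**Figure D1:**
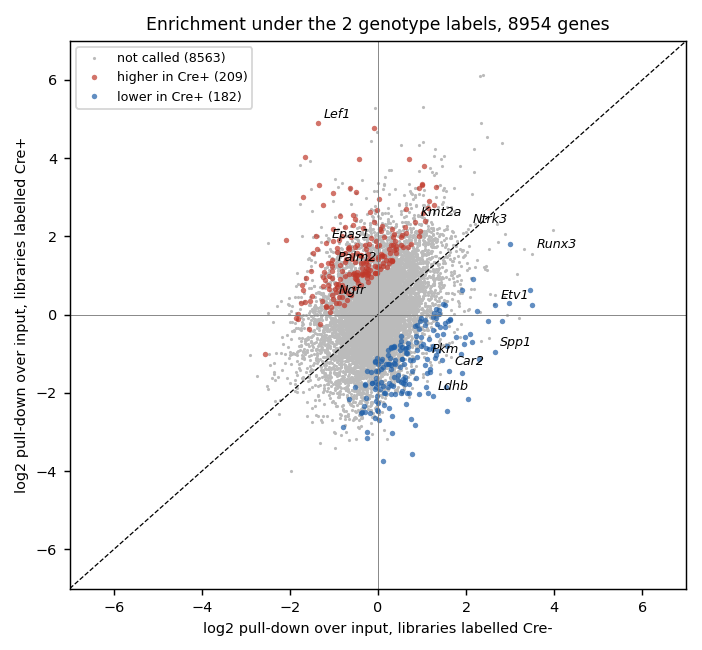
Log2 enrichment in the libraries labelled Cre- (x axis) and Cre+ (y axis) for 8954 genes, from the fit of all 12 libraries. Red points are the 209 genes with higher and blue points the 182 genes with lower enrichment in Cre+, grey points the others, and the dashed line marks equal enrichment; Runx3 and Ntrk3 lie among the genes not called.

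In 9 genes the calls under the 2 labels were opposite. Palm2 and Trappc3l were enriched under Cre+ and depleted under Cre-. Aldoc, Car2, Chgb, Ldhb, Mdh1, Pkm and Serpini1 were depleted under Cre+ and enriched under Cre-. Of these 7, Aldoc, Ldhb and Pkm catalyze steps of glycolysis or lactate formation and Mdh1 belongs to the malate-aspartate shuttle. The per-library enrichments of the labels did not overlap for 208 of the 209 genes and for all 182 genes, against 15.3% of all genes with the Cre+ libraries wholly above and 17.1% wholly below. The exception was Lef1.

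Palm2 (chr4:57434475-57896984), which encodes a paralemmin-type membrane protein, had the smallest FDR among the genes higher in Cre+. Its level was 368.6, 327.9 and 604.5 CPM in the pull-downs labelled Cre+ and 135.0, 204.0 and 213.1 CPM in their inputs. It was 106.4, 128.4 and 117.8 CPM in the pull-downs labelled Cre- and 245.7, 236.9 and 243.7 CPM in their inputs. Each Cre+ pull-down lay above all inputs and each Cre- pull-down below them. The difference was 2.28 ± 0.36 (SE, FDR = 0.00971, edgeR quasi-likelihood test). Of its exon bases 39.1% overlap another annotated gene, Pakap, so its count is uncertain.

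March4 (chr1:72427112-72537159), a membrane-bound ubiquitin ligase, had 608.3, 665.4 and 495.3 CPM in the Cre+ pull-downs against 90.9, 171.8 and 115.4 CPM in the Cre- pull-downs. Its inputs had 151.7, 208.1 and 229.7 CPM (Cre+) and 159.7, 228.8 and 250.2 CPM (Cre-). The difference of 2.34 ± 0.38 (SE, FDR = 0.012) came mainly from the Cre+ side, with an enrichment of 1.58 there and -0.76 under Cre-. Ngfr (chr11:95568818-95587698), the p75 neurotrophin receptor, showed the other pattern. It had 1198, 1275 and 1035 CPM in the Cre+ pull-downs and 513.2, 474.7 and 357.2 CPM in the Cre- pull-downs, with all 6 inputs between 868.4 and 926.5 CPM. The difference of 1.41 ± 0.25 (SE, FDR = 0.0156) included a called depletion under Cre- of -1.02 (FDR = 0.00469) and an enrichment under Cre+ of 0.39 (FDR = 0.115).

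Syt6, a synaptotagmin, resembled Ngfr, with a depletion of -1.5 under Cre- and a difference of 1.98 ± 0.34 (SE, FDR = 0.0156). Its Cre- pull-downs had 79.9, 73.8 and 66.3 CPM and its Cre+ pull-downs 177.1, 308.4 and 332.0 CPM. Epas1 (chr17:86753864-86833410), the hypoxia-inducible factor HIF-2 alpha, had 329.4, 105.9 and 260.9 CPM in the Cre+ pull-downs and 53.2, 27.99 and 27.51 CPM in the Cre- pull-downs. Its difference was 3.01 ± 0.54 (SE, FDR = 0.0187), with the Cre+ libraries spread widely. The remaining genes among the 10 with the smallest FDR were Samd4b, an RNA-binding Smaug protein, Lhfpl2, Fmnl2, a formin that elongates actin filaments, Trappc3l, and Cpne4, a copine. Their differences were 1.48, 1.99, 1.75, 2.45 and 2.09. All 10 genes were called in each of the 12 fits that left out a library, as were Zeb2 (1.60) and, chosen after their values were seen, Kalrn, a guanine nucleotide exchange factor (2.18), and Tusc5 (1.97).

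Among the genes with the smallest FDR in the other direction, Car2, a carbonic anhydrase, had 41.0, 38.9 and 52.8 CPM in the Cre+ pull-downs and 351.3, 277.5 and 339.1 CPM in the Cre- pull-downs, with inputs from 96.8 to 156.1 CPM. Its difference was -3.04 ± 0.34 (SE, FDR = 0.00123). Ckb, the brain-type creatine kinase that buffers ATP, had 88.9, 93.5 and 75.1 CPM against 448.5, 394.3 and 420.3 CPM, a difference of -2.29 ± 0.26. For both genes the 6 inputs lay between the pull-downs of the 2 labels. Clu, the secreted chaperone clusterin, differed by -2.7, Edil3, an extracellular matrix protein, by -2.54, and Chgb, a granin of dense-core vesicles, by -2.41. Eno2, Got1, Pkm and Spp1 are described below. All 9 of these genes were called in each of the 12 fits that left out a library.

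**Figure D2:**
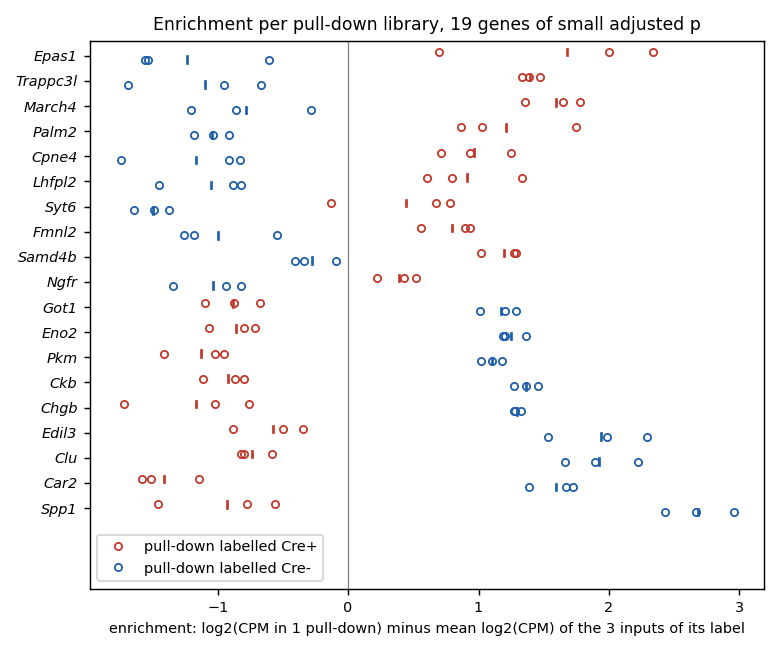
Enrichment of each pull-down library (log2 CPM minus the mean log2 CPM of the 3 inputs of its label, x axis) for 10 genes of small FDR that were higher and 9 that were lower in Cre+. Circles are libraries and short bars are their means, in red for Cre+ and blue for Cre-. The genes were chosen among those without overlap between the labels, so the 3 circles of one label lie wholly to one side of the other label's for all 19 genes.

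The proprioceptor markers differed among themselves. Of 8 tested, 0 were called higher and 2 lower, Spp1 and Etv1, with a median difference of -1.23 against 0.13 over all genes. The median enrichment was 1.28 under Cre+ and 2.34 under Cre-. Spp1 (chr5:104435111-104441053), the secreted protein osteopontin, had 54.8, 34.0 and 63.6 CPM in the Cre+ pull-downs and 499.2, 424.4 and 610.6 CPM in the Cre- pull-downs. Of its exon bases 18.8% overlap another gene. Etv1 (chr12:38780082-38870483), a transcription factor needed for proprioceptive connections to motor neurons, had 89.2, 52.9 and 57.7 CPM against 359.5, 552.9 and 454.1 CPM. In both, the Cre- pull-downs stood far above the 9 other libraries.

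Ntrk3 (chr7:78179986-78581034), the neurotrophin-3 receptor TrkC, was enriched under both labels, by 2.19 (FDR = 0.000215) and 2.03 (FDR = 0.000464). Its pull-downs had 350.3, 275.8 and 270.8 CPM under Cre+ and 261.1, 325.3 and 306.3 CPM under Cre-, which overlap, and its difference was 0.16 ± 0.32 (SE, FDR = 0.814). That sign turned negative with upper-quartile scaling, scaling by library size, the length offset, and without input 2 labelled Cre-. Whrn had a difference of -1.65 (FDR = 0.361), Cacna2d3 of -0.82 (FDR = 0.478), Heg1 of 1.01 (FDR = 0.296) and Cdh13 of 0.14 (FDR = 0.966). In the Cre+ pull-downs Whrn had 23.6, 6.6 and 4.2 CPM, with pull-down 1 above the other 2. Without that library the median difference of the 8 markers was -1.66, and 4 of them were called lower.

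The summed levels of other sensory, pan-neuronal and glial markers also differed between the pull-downs of the labels. The summed level of 18 markers of other sensory neurons was 4190 to 5160 CPM in the Cre+ pull-downs and 2520 to 3280 CPM in the Cre- pull-downs, with inputs from 4040 to 4700 CPM. That of 20 pan-neuronal markers was 25200 to 29200 CPM against 51000 to 59000 CPM, with inputs from 26100 to 33400 CPM, so the Cre+ pull-downs lay near input level. Over its genes the median difference was -0.59, with 14 of 20 under 2-fold and 5 positive. The summed level of 12 glial markers was 3220 to 3920 CPM against 2080 to 2520 CPM. Their inputs had 3910 to 5120 CPM (Cre+) and 4160 to 5560 CPM (Cre-). Of the tested genes in these lists Runx1, a transcription factor of nociceptors, and Ngfr were called higher, with Rbfox3. Snap25, Uchl1, Stmn2 and the glial S100b were called lower. The part of these shifts in the differences of other genes was not tested.

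Genes of energy metabolism were called in one direction. The 3 lists of glycolysis, citrate cycle with malate shuttle, and oxidative phosphorylation held 107 tested genes, or 1.19% of all tested, of which 26 were lower in Cre+ and 0 higher. These 26 were 24.3% of the lists and 14.3% of all genes called lower.

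Of 16 genes of glycolysis and lactate dehydrogenase, 7 were called lower, with a median difference of -1.52. Pkm (chr9:59656576-59679372), pyruvate kinase, had 149.8, 206.2 and 196.4 CPM in the Cre+ pull-downs and 698.2, 739.2 and 779.4 CPM in the Cre- pull-downs. Its inputs had 462.8, 374.9 and 363.8 CPM (Cre+) and 342.7, 359.5 and 331.2 CPM (Cre-), between both sets of pull-downs. The difference was -2.22 ± 0.26 (SE, FDR = 0.00123), and 15.3% of its exon bases overlap another gene. Ldhb (chr6:142490249-142507957), a lactate dehydrogenase subunit, had 18.6 to 52.1 CPM in the 3 Cre+ pull-downs and 297.1 to 321.4 CPM in the 3 Cre- pull-downs, a difference of -3.31 ± 0.54 (SE, FDR = 0.012). Aldoc, the brain-type aldolase, had 24.9, 41.4 and 17.7 CPM against 231.6, 342.6 and 282.7 CPM, a difference of -3.43 ± 0.51 (SE, FDR = 0.00738).

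Aldoa differed by -1.61, Tpi1, triosephosphate isomerase, by -2.51, Eno2, the neuronal enolase, by -2.12, and Ldha by -1.44. Under Cre- alone Aldoa and Tpi1 had enrichments of 0.37 (FDR = 0.313) and 0.55 (FDR = 0.342), so their calls rested mainly on the depletion under Cre+, of -1.25 and -1.96. The paralogs Aldoa and Aldoc, and Ldha and Ldhb, therefore shared a sign. Between 6 and 10 of the list's genes were called lower when any 1 library was left out, and the highest count was without pull-down 1 labelled Cre+. With the length and GC offset 6 were called.

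Short promoter stretches are shown for 4 of these enzymes, because several carry the letters ACGTG, which form the core of the hypoxia response element and part of the E-box CACGTG. The windows were 300 bases, from 250 before to 50 after each start in the RefSeq table (GRCm38.p6), searched on both strands. At least 1 such window with ACGTG was present for 10 of 16 glycolysis genes, 4 of 18 citrate cycle genes with an entry, 30.3% of the 7108 tested genes with an entry and 21.8% of the 27025 genes in the table. A gene with more listed starts has more windows in which to match, which these shares do not allow for. Aldoa had ACGTG in 2 of 3 windows, Ldha, Pkm and Aldoc in 1 of 2, and Mdh1 in 1 of 1. The stretch of Aldoc is not shown. The capitals mark ACGTG or its reverse complement CACGT.
Pkm, chr9:59657140-59657169, plus strand: ctccgatccggtCACGTccgcgccgcagca
Aldoa, chr7:126799363-126799392, minus strand: tgtggctcgagtCACGTcctagcggggcgg
Ldha, chr7:46845647-46845676, plus strand: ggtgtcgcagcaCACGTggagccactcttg
Mdh1, chr11:21572116-21572145, minus strand: ctcggtggagcgACGTGtgctgtcgctcag
The motif starts 75, 126, 145 and 199 bases before the respective start. Ldhb, Eno2, Tpi1, Got1, Got2, Dld, Dlat and Suclg1, which were lower as well, have 1 window each without ACGTG, and Idh3a has no entry. Over the genes called lower with an entry the share was 28.7% (41 of 143), and over those called higher 21.0% (34 of 162). A match is a description of the letters and not of a bound site.

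Of 20 citrate cycle and shuttle genes, 7 were called lower and all 20 had a negative difference, with a median of -1.18. Mdh1 (chr11:21556692-21571934), cytosolic malate dehydrogenase, had 68.7, 63.1 and 109.8 CPM in the Cre+ pull-downs and 408.8, 418.7 and 386.0 CPM in the Cre- pull-downs. Its difference was -2.56 ± 0.36 (SE, FDR = 0.00417). Got1 and Got2, the cytosolic and mitochondrial aspartate aminotransferases that work with Mdh1 in the malate-aspartate shuttle, differed by -2.05 (FDR = 0.00338) and -1.49 (FDR = 0.0185). These 3 calls held in each of the 12 fits that left out a library. Idh3a, Dld, Suclg1 and Dlat were also called, and the list's count ran from 3, without any input or pull-down 3 labelled Cre-, to 14 without pull-down 1 labelled Cre+.

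Of 71 oxidative phosphorylation subunits, 12 were called lower and 1 had a positive difference, with the lowest median of the lists, -1.65. Ndufa9, a complex I subunit, differed by -2.52 ± 0.45 (SE, FDR = 0.0185), with an enrichment of -1.99 under Cre+ and 0.52 under Cre-. Atp5d and Atp5b, subunits of the ATP synthase, differed by -1.78 (FDR = 0.0357) and -1.48 (FDR = 0.0463). The median enrichment of the list was -1.67 under Cre+ and -0.03 under Cre-, so these genes sat near the input level in the Cre- pull-downs. In the 3 Cre+ pull-downs the list's median enrichment was -1.92, -1.54 and -1.5. Only Ndufa9 was called in each of the 12 fits. The count was 1 without input 2, input 3 or pull-down 3 labelled Cre- and 32 without pull-down 1 labelled Cre+. With the offset for length and GC it was 5, and the median was -1.17.

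**Figure D3:**
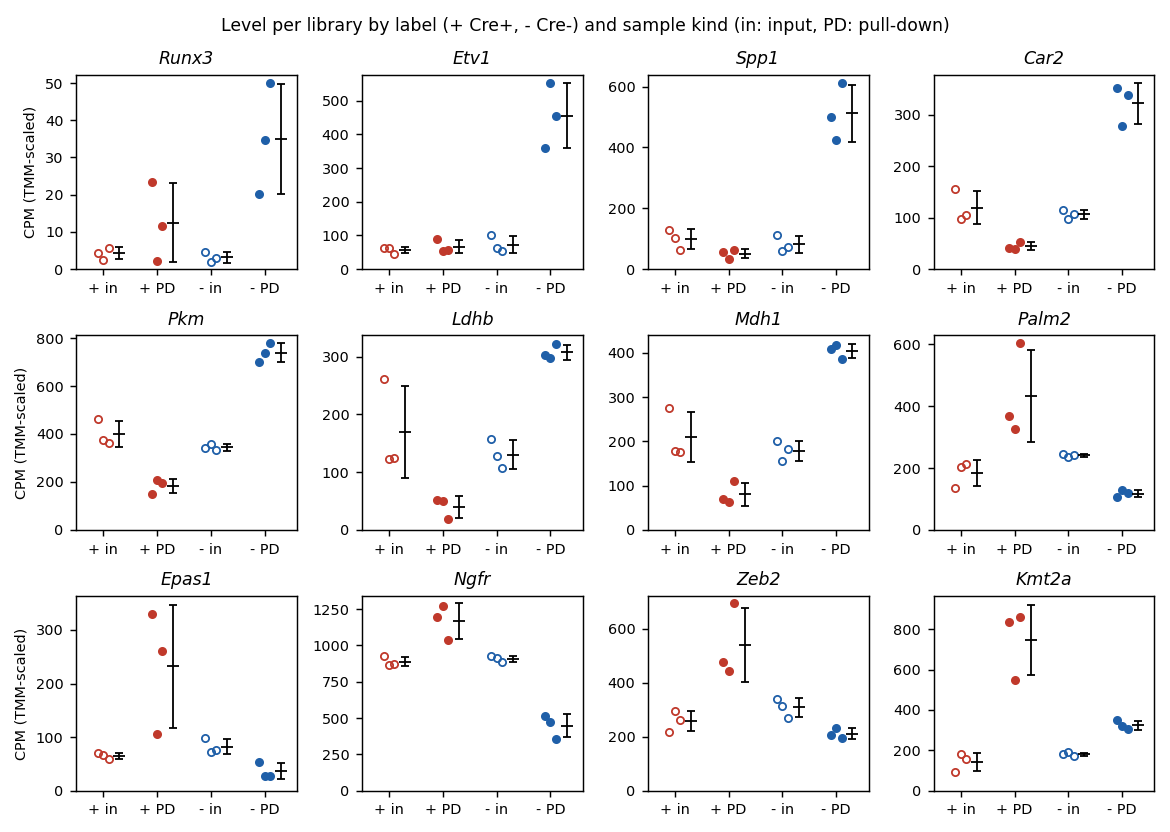
Level of 12 genes in CPM (linear axis from 0) in the 3 libraries of each group, labelled + for Cre+ and - for Cre-, with input (in, open) and pull-down (PD, filled); black marks are mean ± SD. Runx3, Etv1, Spp1, Car2, Pkm, Ldhb and Mdh1 were highest in the Cre- pull-downs, and Palm2, Epas1, Ngfr, Zeb2 and Kmt2a in the Cre+ pull-downs, with Runx3 overlapping between labels.

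Other housekeeping classes had negative medians with few calls. Of 33 proteasome subunits 3 were lower, Psma7 (-2.04, FDR = 0.0442), Psmd6 (-2.17, FDR = 0.0463) and Psmc3, with a median of -1.0. Of 62 chaperones 3 were lower, led by Hsp90aa1 (-1.44, FDR = 0.0156), the inducible HSP90, and the median was -0.69. That count ran from 1, in 8 of the 12 fits, to 10 without pull-down 1 or 2 labelled Cre+. Of 52 mitochondrial import and carrier genes 4 were lower, including Timm17a (-2.32) and the ADP/ATP carrier Slc25a5 (-2.23). These lists had 9.09%, 4.84% and 7.69% of genes called lower, against 2.03% of all genes. Near that background, single genes were lower among the redox enzymes (Sod2, mitochondrial superoxide dismutase, of 24), mitochondrial ribosomal proteins (Mrpl27, of 49), genes of the actin list (Myl6, a myosin light chain, of 29) and secretory pathway proteins (Copg1, of 41), with shares from 2.04% to 4.17%. Of 11 tubulins Tuba1b was lower, with 27.4% of its exon bases in other genes. Vacuolar ATPase and lysosomal proteins gave 2 of 37 (5.41%), Atp6v1d and Psap, and clathrin and endocytosis genes 2 of 37 (5.41%), Clta and Amph. The mitochondrial import count was 0 without input 2, input 3 or pull-down 3 labelled Cre- and 8 without pull-down 1 labelled Cre+. The proteasome count was 0 without input 1 labelled Cre+ and without any input or pull-down 3 labelled Cre-, and 13 without pull-down 1 labelled Cre+.

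Cytosolic ribosomal proteins were not called in either direction. Their 52 tested genes had a median difference of -0.63, with depletion under both labels (median -1.51 under Cre+ and -1.05 under Cre-). With the length and GC offset the median was 0.06, and without input 1 labelled Cre+ it was 0.02, so its sign rested on that setting and on that library. Aminoacyl-tRNA synthetases (16 genes, median -0.81), neuronal intermediate filaments (7, -0.76), splicing proteins (57, -0.22), ferritin and iron genes (10, -0.12), Rab GTPases (42, 0.03), the mTOR and phosphoinositide 3-kinase pathway (24, 0.13), microtubule-associated proteins (24, 0.14) and large ubiquitin ligases (71, 0.29) had 0 calls. With upper-quartile and library size scaling the medians of the Rab, mTOR and microtubule-associated lists were negative, as was that of the ubiquitin ligases with the length offset. Without pull-down 2 or 3 labelled Cre+ the Rab median was -0.21 or -0.25, and without pull-down 3 labelled Cre- the ferritin median was 0.06. The smallest FDR among these was that of Nefl, a neurofilament subunit, at 0.069, with a difference of -0.83 that was under 2-fold. Translation initiation and elongation factors had 1 call each way, Pabpc1 (1.37) and Eif4h (-1.25), of 64.

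**Figure D4:**
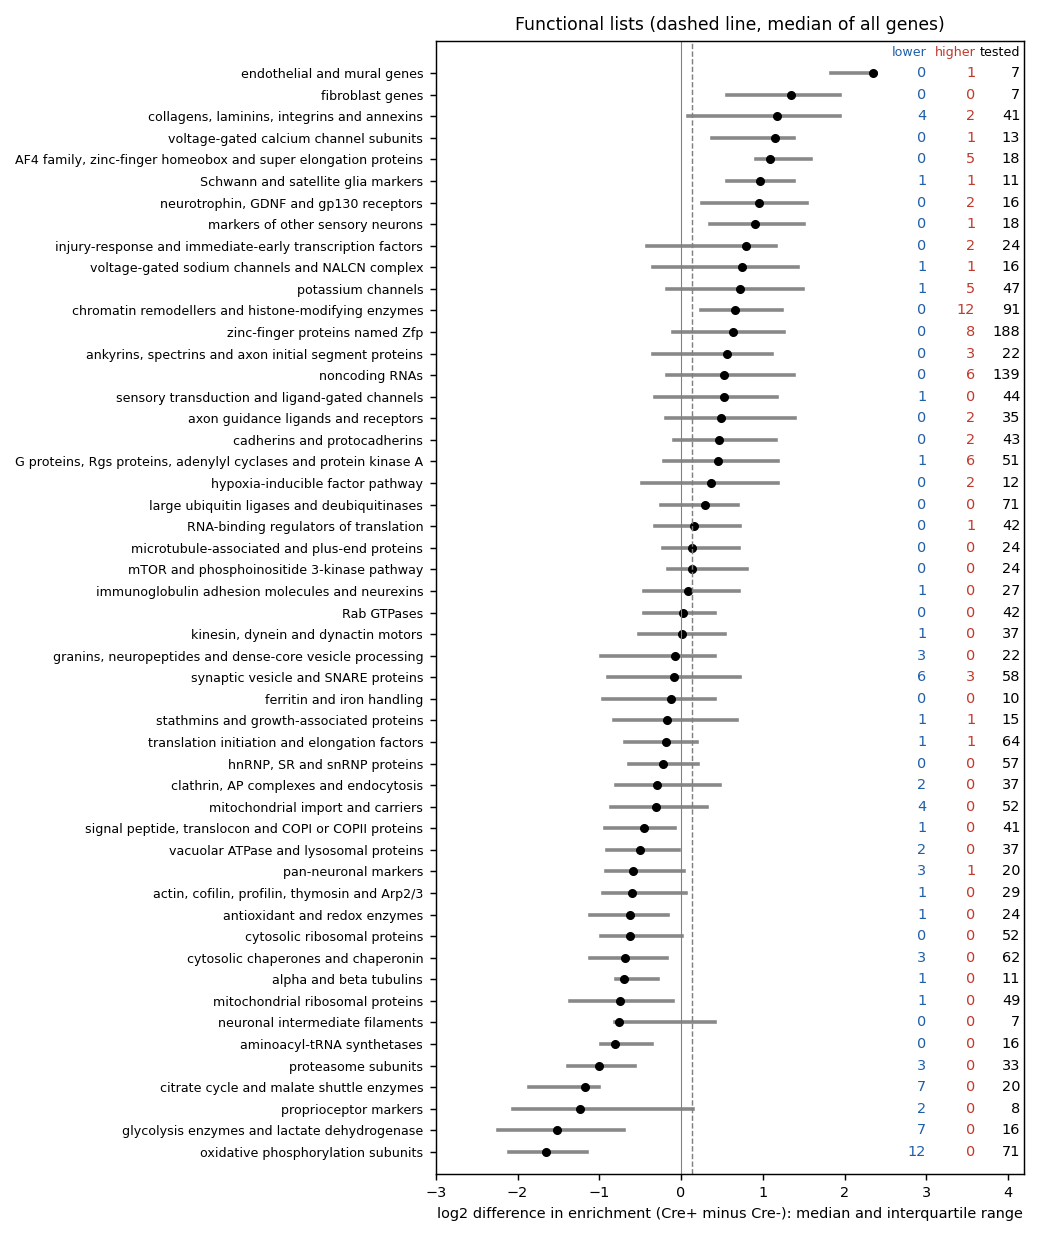
Median (black point) and interquartile range (grey bar) of the log2 difference in enrichment for each functional list with at least 5 tested genes, with the numbers called lower, called higher and tested at the right. The dashed line is the median of all genes, 0.13; the lists of oxidative phosphorylation, glycolysis, proprioceptor markers and the citrate cycle lie lowest, at -1.65, -1.52, -1.23 and -1.18.

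In the lists of chromatin and zinc-finger genes the calls were in the other direction, although single transcription factors outside them, such as Etv1 and Hoxc10, were lower. Of 91 chromatin remodellers and histone-modifying enzymes 12 were higher (13.2%, against 2.33% of all genes) and 0 lower, with a median difference of 0.66 and 75 positive values. Setd5 differed by 1.64 ± 0.34 (SE, FDR = 0.0357), Kdm6b, a histone H3 lysine demethylase, by 1.71 ± 0.36 (SE, FDR = 0.0362), and Kmt2a, a histone H3 lysine methyltransferase, by 1.54 ± 0.34 (SE, FDR = 0.0496). Kmt2a (chr9:44803355-44881352) had 834.2, 547.3 and 861.3 CPM in the Cre+ pull-downs and 347.9, 321.1 and 305.2 CPM in the Cre- pull-downs, with inputs from 95.3 to 189.8 CPM. It was thus above input under both labels, by 2.38 and 0.84, the second called only by its FDR of 0.0736 and not by fold. Others were Ncor1, Arid1a, Chd9, Tet2, Arid2, Setd1a, Ep300 and Kmt2c, named after their values were seen. Of the exon bases of Setd1a 52.3% overlap other genes, so its count is uncertain. The chromatin count was 0 without input 2 or pull-down 3 labelled Cre- and 21 without pull-down 2 labelled Cre+. It was 4 with either other scaling and 1 with the length and GC offset, where the median was 0.18.

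Of 18 AF4, zinc-finger homeobox and elongation genes 5 were higher (27.8%, against 2.33% of all genes), and all 18 had a positive difference, with a median of 1.09. Zeb2, a zinc-finger homeobox repressor, had 477.5, 445.3 and 695.8 CPM in the Cre+ pull-downs and 206.5, 234.2 and 195.9 CPM in the Cre- pull-downs, a difference of 1.60 ± 0.30 (SE, FDR = 0.0221). Zfhx3, Aff1, Zfhx4 and Tshz1 followed. Zeb2 alone among them was called in each of the 12 fits, and the list's count ran from 1 without input 3 labelled Cre+, or input 2 or pull-down 3 labelled Cre-, to 14 without pull-down 1 labelled Cre+. It was 2 with either other scaling and 1 with the length and GC offset. Of 188 zinc-finger genes with a current Zfp symbol 8 were higher and 0 lower, with a median of 0.64, led by Znf512b (now Zfp512b, 2.80) and Zfp652 (2.40). These were 4.26% of the list, against 2.33% of all genes. The count was 0 without input 1, input 2 or pull-down 3 labelled Cre- and 23 without pull-down 2 labelled Cre+, and it was 4 with upper-quartile scaling, 3 with library size scaling and 3 with the length and GC offset. Klf7 (1.29, FDR = 0.0356; 39.4% of its exon bases overlap noncoding genes) and Fosl2 (1.53), of 24 injury-response transcription factors, were higher, or 8.33% of that list. The hypoxia pathway had Epas1 and its target Vegfa (1.76, FDR = 0.0754) called higher of 12 genes, or 16.7%.

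The ion channel and G protein lists held at most 1 lower call each, and their counts of higher potassium channel and G protein genes depended on the scaling. Of 47 potassium channel genes 5 were higher (10.6%, against 2.33% of all genes). The 1 lower gene was 2.13% of the list, near the 2.03% of all genes. The higher count ran from 0 without input 2 labelled Cre- to 9 without pull-down 1 labelled Cre+, and 0 were lower in 8 of the 12 fits. Among the higher genes Kcnip4 differed by 1.19, Kcnd3 by 1.62, Kcna4 by 2.99 and Kcnip3 by 1.64, and Kcns1 was lower (-2.6). Of 16 sodium channel and NALCN genes Scn9a, the nociceptor channel Nav1.7, was higher (1.58, FDR = 0.0364), and Unc80, part of the NALCN leak channel, was lower (-1.18, FDR = 0.0559) although enriched under both labels. The calcium channel subunit Cacnb3 (1.23, of 13) was higher and the glycine receptor subunit Glrb (-1.32, of 44 transduction and ligand-gated channels) lower.

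Of 51 G protein, Rgs, adenylyl cyclase and protein kinase A genes 6 were higher, Gna14, Gnb4, Gnal, Gnao1, Rgs3 and Gnai2, and 1 lower, the regulatory subunit Prkar1a (-1.31, FDR = 0.021). The higher genes were 11.8% of the list, against 2.33% of all genes, and the single lower gene, 1.96%, was near the 2.03% of all genes. The count of higher genes was 0 without 6 of the 12 libraries taken singly, among them inputs 2 and 3 and pull-downs 2 and 3 labelled Cre-, and 12 without pull-down 1 labelled Cre+. With upper-quartile scaling 2 potassium channel and 2 G protein genes were higher and 1 of each list lower, and with library size scaling 2 and 1 were higher and 1 of each lower. Of 16 growth factor receptors Ngfr and Igf1r (1.47, FDR = 0.0394) were higher, or 12.5% of that list. Ankyrins and spectrins, proteins of the membrane skeleton, had 3 higher of 22 (13.6%), Ank2, Ank3 and Sptbn1. That count ran from 0 without input 1 labelled Cre+, or input 2, input 3 or pull-down 3 labelled Cre-, to 6 without pull-down 1 labelled Cre+. It was 1 with either other scaling, and with the length and GC offset 0 were higher and 1 lower.

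Synaptic and adhesion genes were split. Of 58 synaptic vesicle and SNARE genes 3 were higher, Syt6, Cplx2 (2.39) and Unc13c (1.91), and 6 lower, Snap25, Syp, Vamp1, Nsf, Snap91 and Stx18 (32.3% of the exon bases of the last overlap other genes). These were 5.17% and 10.3% of the list, against 2.33% and 2.03% of all genes. The lower count was 1 without input 2, input 3 or pull-down 3 labelled Cre- and 12 without pull-down 2 labelled Cre+, and the higher count ran from 1 to 8. Snap25, a core SNARE protein, differed by -1.76 ± 0.30 (SE, FDR = 0.0156) and was called in each of the 12 fits. Of 22 granin and neuropeptide genes Chgb, Scg5 (-2.88) and Adcyap1 (-1.95) were lower, or 13.6% of the list. The list's median was -0.08, with 11 positive and 11 negative values. Its lower count was 1 without input 1, input 2, pull-down 2 or pull-down 3 labelled Cre-, and 6 without pull-down 2 labelled Cre+. Of 41 collagen, laminin, integrin and annexin genes 4 were lower, Anxa2, Anxa6, Anxa7 and Itgb1, and 2 higher, Itga3 and Hspg2, although the list's median was 1.17. These were 9.76% and 4.88% of the list. Both counts were 0 without input 3 labelled Cre+, any input labelled Cre- or pull-down 3 labelled Cre-, and with the length and GC offset, and 8 genes were higher without pull-down 1 labelled Cre-. With either other scaling 0 were higher and 4 lower. Mcam (-1.84, FDR = 0.013, of 27 immunoglobulin adhesion genes) and Kif21b, a kinesin (-3.24, FDR = 0.0334, of 37 motors), were lower. Of 35 guidance genes Ntng1 and Plxnd1 were higher, of 43 cadherins Pcdh17 and Fat4, of 15 growth-associated genes Cd24a was higher and Stmn2 lower, and of 42 RNA-binding regulators Rbfox3 was higher. The shares called higher were 5.71%, 4.65% and 2.38% in the guidance, cadherin and RNA-binding lists, against 2.33% of all genes. Each of the 3 had 0 higher with either other scaling, with the length and GC offset and without any 1 input. Of all 23 lists with a gene called higher, marker lists included, 18 had 0 higher when some 1 library was left out, as did 18 of the 27 lists with a gene called lower.

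Noncoding RNAs, which are not templates for translation, gave 6 higher and 0 lower of 139 tested, with a median difference of 0.52. That is 4.32% against 2.33% of all genes, and the count ran from 0, without input 2, input 3 or pull-down 3 labelled Cre-, to 15 without pull-down 3 labelled Cre+. Meg3 had 1748, 291.2 and 399.8 CPM in the Cre+ pull-downs and 186.6, 130.6 and 119.2 CPM in the Cre- pull-downs, a difference of 2.77 ± 0.70 (SE, FDR = 0.0689). Rian, a neighbouring imprinted RNA, differed by 1.87 ± 0.41 (SE, FDR = 0.0402). The remaining 4 were transcripts with Riken names.

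The largest positive differences came with wide spread among the Cre+ pull-downs. Lef1, a Wnt pathway transcription factor, had 292.5, 19.2 and 1.5 CPM in the Cre+ pull-downs, Gpr4 had 90.8, 1.9 and 53.7 CPM, and Dock6 had 101.4, 12.0 and 4.1 CPM. In the Cre- pull-downs these genes lay between 0.578 and 4.5 CPM. Their differences were 6.26, 5.68 and 4.86, and each call was lost in 8 or more of the 12 fits, for Lef1 and Dock6 also without pull-down 1 labelled Cre+. Tek, an endothelial receptor, was alike, with 47.3, 2.3 and 12.0 CPM. The 7 tested endothelial and mural genes had a median difference of 2.35, and their median enrichment was 3.91, 0.80 and 1.17 in Cre+ pull-downs 1, 2 and 3 and 1.19, -1.69 and -1.43 in the Cre- pull-downs. The summed level of 8 such genes was 214 to 975 CPM in the Cre+ and 40.1 to 241 CPM in the Cre- pull-downs, so pull-down 1 of both labels stood apart. Their part in the calls of other genes was not tested. The 7 fibroblast genes (median 1.34) and the 2 macrophage genes (median 0.67, and -1.01 without pull-down 1 labelled Cre+) had 0 calls, and their summed levels overlapped between the labels' pull-downs. Of 11 macrophage genes listed for Cre- only these 2 were tested, so the list says little about that cell type. Among the untested, Lyz2 had 85, 153 and 230 unscaled counts in the Cre- inputs and 324, 412 and 310 in the Cre- pull-downs. Cx3cr1 had 11, 12 and 4 against 1, 5 and 1. The most negative differences were those of Hoxc10 (-4.34, FDR = 0.0244), Iqck (-4.19, FDR = 0.0695) and Rasgef1b (-4.04, FDR = 0.0619), at low levels.

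Transcript length varied with the difference. The median longest transcript was 5861 bases for the 209 genes higher in Cre+, 2631 for the 182 lower genes and 3615 for all genes, with GC contents of 49.0%, 49.4% and 49.4%. In the shortest quartile, of 84 to 2394 bases, 0.404% were higher and 3.28% lower. In the longest, from 5226 bases, 5.39% were higher and 0.898% lower. The same slope was present within each label, and was steeper under Cre+, where the median enrichment went from -0.72 to 0.82, than under Cre-, where it went from -0.35 to 0.29. Across genes, the Spearman correlation of length was 0.30 with the difference, 0.54 with the Cre+ enrichment and 0.38 with the Cre- enrichment, as a description over genes that share libraries.

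**Figure D5:**
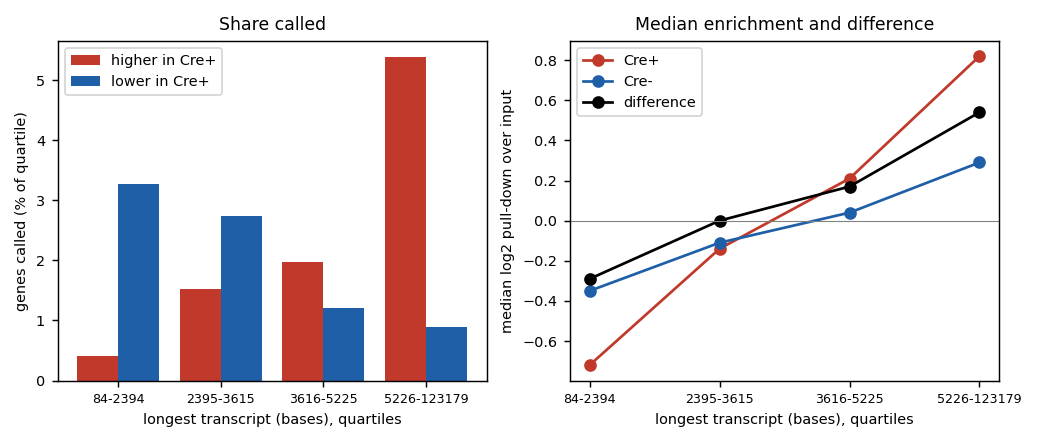
Left, percent of genes called higher (red) and lower (blue) in Cre+ in 4 quartiles of longest transcript length. Right, median log2 enrichment under Cre+ (red) and Cre- (blue) and the median difference (black) in the same quartiles; the median difference goes from -0.29 in the shortest to 0.54 in the longest.

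When length and GC were entered as an offset, 99 genes were called higher and 149 lower, and 82 of the 209 and 123 of the 182 genes were among them. Glycolysis kept a median of -1.14 and the citrate cycle -0.98, whereas the chromatin list went from 0.66 to 0.18 and the ankyrin and spectrin list from 0.56 to 0.08. Each of the 43 genes called in all 12 fits was called with the offset too. Beyond the genes named above, these included Serpini1 (-2.89, FDR = 0.00417), the neuronal protease inhibitor neuroserpin, and Ndrg4, Magee1, Fgf1, Lancl3, Reep5, Acsl6 and Snapc2, chosen after their values were seen.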

How the data were processed

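Members and gene lists were chosen with earlier results of these data known. The authors aligned reads with STAR to mm10 and deposited, per the paper's methods, HTSeq counts of uniquely mapped fragments on refFlat genes, not normalized. The mean FPKM per table, as deposited by the authors, served only as the filter (above 1). The deposited fold changes, p-values and FDR, and 18 columns per sample of normalized counts and ratios, were not used. The Cre+ columns were given to that label because its samples' descriptions name the table; their names alone would also fit the Cre- titles. They could not be matched to single samples, and replicate numbers there serve as names.

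Counts of 12 libraries were fitted together in edgeR 4.0.16 (R 4.3.3; TMM, robust glmQLFit and glmQLFTest) with 4 group means, without a replicate block. Robust estimation was chosen after seeing the data, because it gave the call counts already known from an earlier analysis of these files; without it 200 genes were called higher and 175 lower. FDR is the Benjamini-Hochberg adjusted p over 8954 genes, calls need FDR below 0.1 and a 2-fold difference, and SE is the log2 value divided by the square root of F. Per-library enrichments used log2 CPM with a prior count of 2. Lists (53, of which 52 had tested genes) were described by counts and medians without a test; the list of epidermal, muscle and blood genes had none tested.

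Named genes were the 10 smallest FDR per direction without overlap, the 3 largest differences per direction, the proprioceptor markers, and up to 3 per list and direction; some are not reported here. Length and GC (8907 genes) and exon overlap came from GENCODE M21, since strand-specific counting is not given in the sources used here. Coordinates are RefSeq, GRCm38; 8516 genes matched by symbol and 405 by synonym. Rn45s took 2.8% to 8.53% of counts. Counts range from 8886308 to 18633365 per library, without molecular identifiers. Alternatives were DESeq2 1.42.0, other filters and scalings, cutoffs, a length and GC offset (loess, span 0.5), the block and each library left out; edgeR without robust estimation was added after seeing the data. The script was tested on simulated data. Figures used matplotlib 3.10.9.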

Additional observations from a re-analysis of the deposited data

Results flagged for a closer look

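The test of the difference itself singled out 209 genes with higher and 182 genes with lower enrichment in the libraries labelled Cre+. Among the genes named above, those called in opposite directions within the 2 labels were Palm2 (2.28) and Trappc3l (2.45), higher in Cre+, and Aldoc (-3.43), Car2 (-3.04), Chgb (-2.41), Ldhb (-3.31), Mdh1 (-2.56), Pkm (-2.22) and Serpini1 (-2.89), lower in Cre+. All 9 were called in each of the 12 fits that left out a library.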

How the results depend on the processing

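Against 209 higher and 182 lower genes, DESeq2 called 612 and 428, upper-quartile scaling 85 and 205, library size scaling 72 and 275, the length and GC offset without block 99 and 149, and an FDR below 0.05 35 and 60. With a replicate block in the libraries labelled Cre- the counts were 19 and 40, and with the block and the offset 23 and 58. With the block the chromatin, G protein and zinc-finger lists had 0 genes higher and noncoding RNAs 1, and 1 oxidative phosphorylation, 3 citrate cycle, 6 glycolysis, 0 proteasome, 0 mitochondrial import and 1 synaptic vesicle genes were lower. The main fit did not take the numbers as pairing. Deviations of same-numbered Cre- libraries correlated at 0.058, 0.042 and 0.139. These values are small, but each Cre- pull-down correlated best with the input of its own number. Seen from the inputs, input 2 correlated with pull-down 1 at 0.045 and with pull-down 2 at 0.042. Whether the numbers pair the libraries was not settled. Without 1 library the counts ranged from 13 to 713 and from 30 to 694. Under Cre+ enriched genes ranged from 679 to 1598 and depleted from 464 to 1363; under Cre-, from 132 to 433 and from 56 to 414. A filter of 10 counts in 3 libraries and no filter each gave 196 and 174, no fold limit 212 and 193, and no robust estimation 200 and 175. Signs turned for Ntrk3 (-0.03 with upper-quartile scaling, -0.08 with library size, -0.73 with the offset, -0.74 with offset and block, -0.01 without Cre- input 2), Cdh13 (-0.06 with library size; -0.23, -0.02, -1.07 and -0.17 without Cre+ input 1, Cre+ input 2, Cre+ pull-down 2 and Cre- pull-down 3) and Cd68 (-0.99 without Cre+ pull-down 1), none of them called at the main setting. Their highest values without 1 library were 0.29 (Ntrk3), 0.9 (Cdh13) and 1.82 (Cd68). The cause was not tested.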
